A study of Mus musculus with 5 samples.

Results

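Epas1 and 8 other genes of oxygen sensing were followed through the ChIP-seq peak lists of ZHX1 and hnRNPA1. The genes were Epas1, Hif1a, Hif3a, Arnt, Arnt2, Egln1, Egln2, Egln3 and Vhl, and their peaks were the entries that carry one of these names in the gene name column of the deposited lists. They came to 44 of 89451 peaks: 28 of 51545 from hnRNPA1 ChIP in Zhx1-KO cells, 10 of 23244 from ZHX1 ChIP in 46C-Ctrl cells and 6 of 14662 from hnRNPA1 ChIP in 46C-Ctrl cells.

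The chromatin came from mouse ESCs of the 46C line that had been differentiated in culture, with growth factors that included VEGF, to the CP (cardiac progenitor) stage. Zhx1-KO cells had been targeted with Cas9 guides at both ends of Zhx1, the gene of a homeobox protein with zinc fingers. The 46C-Ctrl cells were the study's control cells of the same line. Each list came from 1 library, and whether Zhx1-KO was 1 clone is not given in the sources used here. No difference between the lists could therefore be tested, intervals cover counting error only, and an effect of Zhx1 loss cannot be told apart from a difference between 2 libraries. The lists hold positions without read counts, so the depth and strength of a peak are unknown, and the cell type cannot be checked from them because they do not measure expression. The study chose Epas1 for a follow-up ChIP-qPCR as a gene that ZHX1 and hnRNPA1 might share, which is the question asked of the lists here.

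HIF transcription factors pair an oxygen-regulated alpha subunit with a stable ARNT partner. When oxygen is plentiful, the EGLN enzymes hydroxylate prolines of the alpha subunit, the VHL protein recognises the mark, and the subunit is ubiquitinated and destroyed. When oxygen is low, the pair binds a core motif spelled ACGTG or GCGTG and raises genes of vessel growth, glycolysis and red cell production, a response that the embryonic heart and its vessels depend on.

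Sequences are shown first for the 46C-Ctrl peaks that lay within Epas1, 1 of ZHX1 and 1 of hnRNPA1. The Zhx1-KO hnRNPA1 peaks in Epas1 intron 1 are not shown, although 1 of them, at 1.32 kb, lay closest to the outermost start. All peak sequences shown are the forward strand of GRCm38, each given whole or as its central 300 bases. Capitals mark matches on either strand to the HIF core ACGTG or GCGTG. They also mark TAGGG, which in RNA is the core site of hnRNPA1. The NF-Y site CCAAT is in capitals too. The first spans the border of exon 8 and its intron (chr17:86823694-86823921), and the second lies in intron 2 (chr17:86799120-86799419 shown).
Epas1 exon 8, 46C-Ctrl ZHX1: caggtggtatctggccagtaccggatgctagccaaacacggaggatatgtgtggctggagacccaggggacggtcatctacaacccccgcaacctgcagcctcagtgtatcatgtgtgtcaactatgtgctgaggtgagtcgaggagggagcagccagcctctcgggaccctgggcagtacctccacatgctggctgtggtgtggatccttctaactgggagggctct
Epas1 intron 2, 46C-Ctrl hnRNPA1: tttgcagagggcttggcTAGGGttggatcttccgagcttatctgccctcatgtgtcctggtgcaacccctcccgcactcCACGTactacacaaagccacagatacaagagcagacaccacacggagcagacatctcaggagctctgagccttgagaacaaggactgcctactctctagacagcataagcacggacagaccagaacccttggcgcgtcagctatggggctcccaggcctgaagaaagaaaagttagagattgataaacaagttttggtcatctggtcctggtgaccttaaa

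The next pair is the closest approach of ZHX1 to hnRNPA1 among the 46C-Ctrl peaks named for Epas1, 6.01 kb apart between Prkce and Epas1 (chr17:86682607-86682906 shown and chr17:86676374-86676596).
Intergenic, 46C-Ctrl ZHX1: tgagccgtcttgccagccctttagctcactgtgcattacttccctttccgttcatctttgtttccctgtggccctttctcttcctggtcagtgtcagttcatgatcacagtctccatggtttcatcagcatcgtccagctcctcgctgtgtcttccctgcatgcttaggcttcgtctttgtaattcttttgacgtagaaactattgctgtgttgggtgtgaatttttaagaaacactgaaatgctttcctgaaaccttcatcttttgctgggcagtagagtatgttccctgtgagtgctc
Intergenic, 46C-Ctrl hnRNPA1: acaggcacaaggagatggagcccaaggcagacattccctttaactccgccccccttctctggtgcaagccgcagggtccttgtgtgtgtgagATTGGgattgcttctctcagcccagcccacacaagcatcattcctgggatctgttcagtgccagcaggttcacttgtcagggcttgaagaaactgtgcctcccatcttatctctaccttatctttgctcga

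The reference sequence between the study's Epas1 ChIP-qPCR primers is shown to place that assay against the peaks, with the primer sites in capitals (chr17:86747657-86747727, forward strand).
Epas1 amplicon: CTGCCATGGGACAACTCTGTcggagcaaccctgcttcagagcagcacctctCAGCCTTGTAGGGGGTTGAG

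The 250 bases before an Egln2 start, from RefSeq (GRCm38.p6, chr7:27166803-27167052, minus strand), are shown because Egln2 was the only member with a 46C-Ctrl hnRNPA1 peak at its promoter. Capitals mark ACGTG or GCGTG on either strand. The 46C-Ctrl hnRNPA1 peak itself (chr7:27166139-27166361) lies outside the bases shown and holds no ACGTG or GCGTG. The RefSeq table held 9 promoter windows for 8 of the 9 members.
Egln2 upstream: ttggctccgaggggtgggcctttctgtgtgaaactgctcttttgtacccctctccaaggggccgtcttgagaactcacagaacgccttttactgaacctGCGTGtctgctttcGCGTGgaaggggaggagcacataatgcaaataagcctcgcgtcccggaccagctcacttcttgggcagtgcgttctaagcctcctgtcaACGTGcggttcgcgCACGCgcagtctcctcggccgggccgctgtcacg

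By the deposited names, Epas1 and Egln3 were the only ones of the 9 genes present in all 3 lists. Counted over the gene bodies of GENCODE M21, the picture changed: Egln3 held no peak and Epas1 kept 2 peaks of Zhx1-KO hnRNPA1, 1 of 46C-Ctrl ZHX1 and 1 of 46C-Ctrl hnRNPA1. At least 1 named peak was found for 6 of 9 members in the Zhx1-KO hnRNPA1 list, beside 57.7% of RefSeq protein-coding genes in that list. The 46C-Ctrl ZHX1 list named 5 of 9 members, beside 40.5% of genes, and the 46C-Ctrl hnRNPA1 list named 3 of 9, beside 31.3% of genes. Over gene bodies the members with a peak were 5 for Zhx1-KO hnRNPA1, 3 for 46C-Ctrl ZHX1 and 2 for 46C-Ctrl hnRNPA1, and the shares of all protein-coding genes were 42.3%, 28.1% and 20.5% in the same order of lists. With 9 genes, these counts lie near what each list gave for genes at large.

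**Figure D1:**
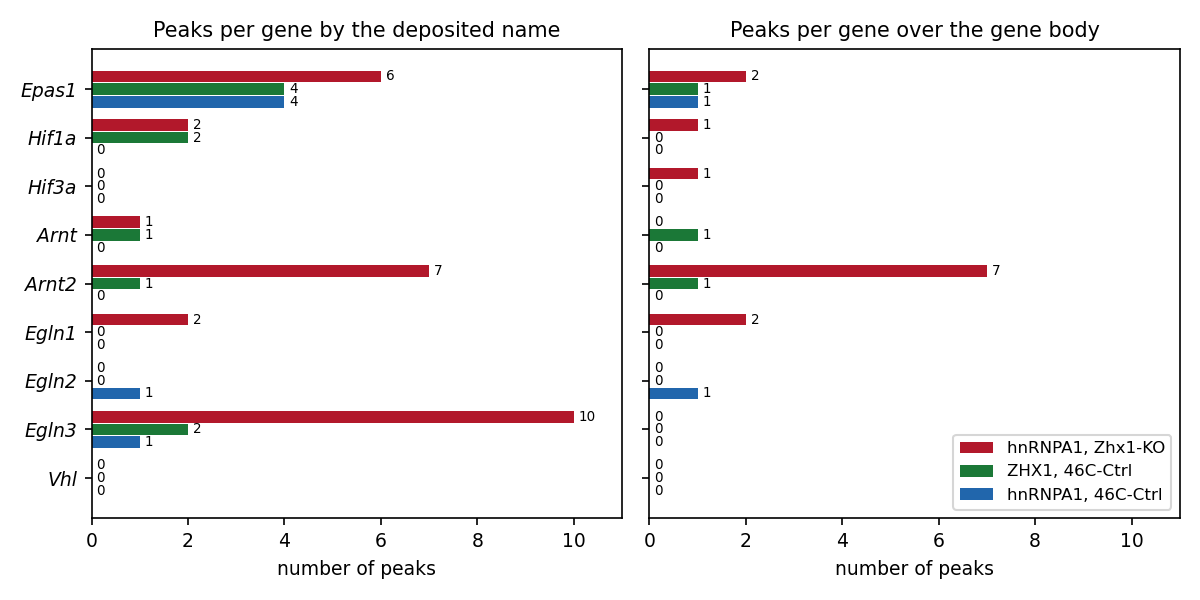
Peaks per gene (x axis, number of peaks) for the 9 members in the Zhx1-KO hnRNPA1, 46C-Ctrl ZHX1 and 46C-Ctrl hnRNPA1 lists, by deposited name on the left and over the gene body on the right. Egln3 has 10, 2 and 1 peaks by name and 0 over its body, while Arnt2 has 7, 1 and 0 by both counts.

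Relative to the length of each list, the members took 5.43 of every 10000 peaks in Zhx1-KO hnRNPA1 (95% Wilson interval 3.76 to 7.85), 4.30 in 46C-Ctrl ZHX1 (2.34 to 7.92) and 4.09 in 46C-Ctrl hnRNPA1 (1.88 to 8.93). The Zhx1-KO hnRNPA1 list held 4.67 times as many member peaks as the 46C-Ctrl hnRNPA1 list and was 3.52 times as long. These intervals overlap, and they treat peaks as independent although member peaks cluster at a few loci. The larger number of member peaks in Zhx1-KO was not distinguishable from the larger length of the list, and the shares were not tested against each other. The stretches of genome whose nearest curated RefSeq start belongs to a member added up to 1.30 Mb. They held 19.3 Zhx1-KO hnRNPA1 peaks per Mb against 19.5 genome-wide, 7.71 ZHX1 peaks per Mb against 8.78, and 4.63 46C-Ctrl hnRNPA1 peaks per Mb against 5.54.

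Epas1 encodes HIF-2α, the alpha subunit first described in endothelial cells. The gene (ENSMUSG00000024140) spans chr17:86753700-86833410 on the plus strand of GRCm38, a length of 79.7 kb. It had 6 named peaks in Zhx1-KO hnRNPA1, 4 in 46C-Ctrl ZHX1 and 4 in 46C-Ctrl hnRNPA1. Only 4 of these 14 lay in Epas1. Another 6, a pair from each list, lay in introns of Prkce, the gene of a protein kinase C isoform that ends 95.8 kb before Epas1 begins, and 4 lay between both genes. Unlike the members together, Epas1 took its smallest share from the Zhx1-KO list, with 1.16 of every 10000 peaks in Zhx1-KO hnRNPA1 (0.533 to 2.54), 1.72 in 46C-Ctrl ZHX1 (0.669 to 4.42) and 2.73 in 46C-Ctrl hnRNPA1 (1.06 to 7.01). The 3 intervals overlap, and the counts of 6 and 4 for hnRNPA1 in Zhx1-KO and 46C-Ctrl cells were within counting error of each other once set beside the list lengths. Because the study picked Epas1 from these same data, its shares are not independent of that choice.

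Along the chromosome the 3 lists alternated at Epas1 without meeting. In the Zhx1-KO hnRNPA1 list, peaks in Prkce introns 10 and 11 lay 231 and 161 kb upstream of the outermost Epas1 start, and intergenic peaks lay 94.9 and 86.6 kb upstream. Its other peaks lay in Epas1 intron 1, at 1.32 and 26.8 kb downstream of the start, and the first of these was the closest of the 14 to the outermost start. In the 46C-Ctrl ZHX1 list, a pair in Prkce intron 14 lay 118 and 111 kb upstream and an intergenic peak 70.8 kb upstream. The remaining ZHX1 peak covered coding sequence of exon 8 of 16, at 70.0 kb into the gene and 0.411 kb from an annotated internal start. In the 46C-Ctrl hnRNPA1 list, a pair in Prkce intron 10 lay 211 and 207 kb upstream, an intergenic peak 77.1 kb upstream, and a peak in Epas1 intron 2 lay 45.4 kb downstream. The closest peaks of different lists were 6.01 kb apart for 46C-Ctrl ZHX1 and 46C-Ctrl hnRNPA1, 9.27 kb for hnRNPA1 in Zhx1-KO and 46C-Ctrl, and 15.5 kb for Zhx1-KO hnRNPA1 and 46C-Ctrl ZHX1.

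**Figure D2:**
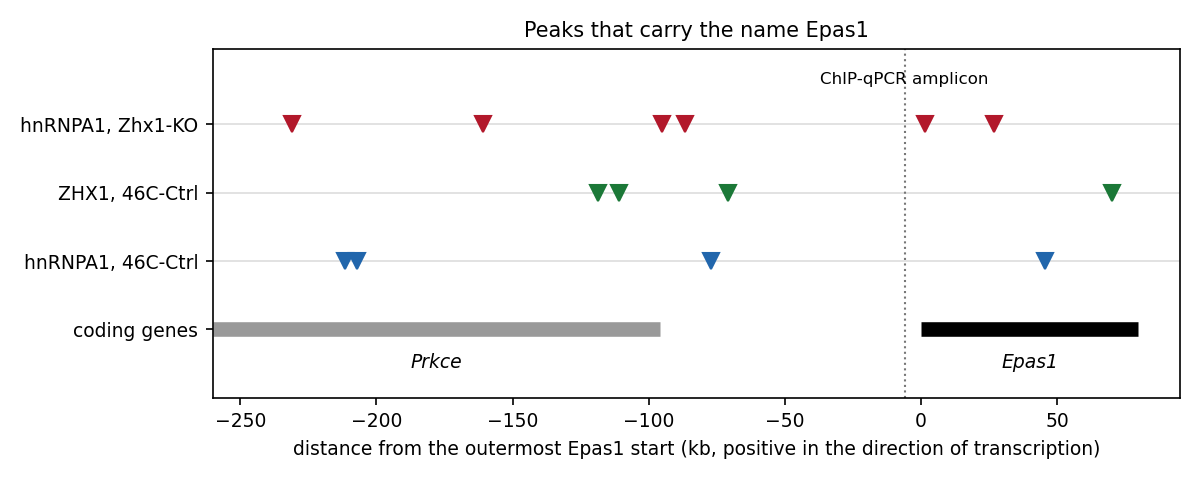
Centres of the peaks named for Epas1 (triangles) by distance from the outermost Epas1 start (x axis, kb), with a row for each list, coding genes as bars (Prkce cut at the left edge) and the ChIP-qPCR amplicon as a dotted line. Of the 14 peaks 4 lie over Epas1, and no peak of any list lies at the amplicon.

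Both primers of the study's Epas1 promoter assay matched the genome at 1 place each. The 71 bp amplicon lies 5.97 kb upstream of the outermost Epas1 start in GENCODE, which is beyond the 2 kb used here for a promoter. The nearest peak was 7.29 kb away in Zhx1-KO hnRNPA1 (the intron 1 peak), 64.7 kb in 46C-Ctrl ZHX1 and 51.4 kb in 46C-Ctrl hnRNPA1. None of the lists thus called a peak at the assayed position. A position without a call in a list of unknown threshold does not show that binding was absent there. With this assay the study reported no ZHX1 enrichment at Epas1, and no significant loss of hnRNPA1 there after Zhx1 knockout. From its ChIP-seq tracks the study had described weaker hnRNPA1 binding at the Epas1 promoter without Zhx1.

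The stretch nearest to a curated Epas1 start is 315 kb long. It held 19.0 peaks per Mb in the Zhx1-KO hnRNPA1 list (19.5 genome-wide), 12.7 in the 46C-Ctrl ZHX1 list (8.78) and 12.7 in the 46C-Ctrl hnRNPA1 list (5.54). The rate was thus close to that of the list in Zhx1-KO and above it in both 46C-Ctrl lists, on 4 peaks each and with no test. The study presented Epas1 from these same ChIP-seq data as a gene bound less by hnRNPA1 without Zhx1. Its rates and counts here are therefore not independent of that choice. As many named peaks as Epas1 or more were found for 8.28% of RefSeq protein-coding genes in the Zhx1-KO hnRNPA1 list, 5.22% in the 46C-Ctrl ZHX1 list and 2.14% in the 46C-Ctrl hnRNPA1 list. The largest count for any gene was 67, 53 and 30 in these lists in the order Zhx1-KO hnRNPA1, 46C-Ctrl ZHX1, 46C-Ctrl hnRNPA1. Tmem108, a transmembrane protein gene on chromosome 9, was the only other protein-coding gene with exactly 6, 4 and 4 named peaks.

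Hif1a encodes HIF-1α, the alpha subunit found in most cell types (chr12:73901375-73947530, plus strand). It had 2 named peaks in Zhx1-KO hnRNPA1, 2 in 46C-Ctrl ZHX1 and 0 in 46C-Ctrl hnRNPA1. The Zhx1-KO hnRNPA1 peaks lay in intron 5 (chr12:73931017-73931240) and 105 kb upstream in the long non-coding gene Gm8075. The ZHX1 peaks lay 76.1 kb upstream and, at 134 kb upstream, in intron 12 of Prkch, another protein kinase C gene. So a single peak of all 3 lists fell in Hif1a itself, and the antisense gene Gm15283 covers the same position. Hif3a encodes an alpha subunit with isoforms that restrain the others (chr7:17031507-17062427, minus strand). No peak carried its name, but 1 Zhx1-KO hnRNPA1 peak named Ppp5c (chr7:17032444-17032667) lay over the untranslated part of its last exon, number 15 of 15.

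Arnt and Arnt2 encode the partners that the alpha subunits need to bind DNA. Arnt (chr3:95434388-95497240, plus strand) had 1 Zhx1-KO hnRNPA1 peak, 2.66 kb upstream of the gene (chr3:95431473-95431727), and 1 46C-Ctrl ZHX1 peak, in intron 4 and 0.223 kb from an internal start (chr3:95465837-95466064). The upstream peak lay wholly in soft-masked repeat sequence, and its 32-base words occur a median of 1221 times in the genome, so its place is less certain than that of the other member peaks. The 46C-Ctrl hnRNPA1 list named no Arnt or Arnt2 peak.

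Arnt2 (chr7:84246278-84410176, minus strand) had 7 Zhx1-KO hnRNPA1 peaks, 1 46C-Ctrl ZHX1 peak and no 46C-Ctrl hnRNPA1 peak, and in contrast to Epas1 and Egln3 each of these lay in the gene. The 7 peaks were spread over 5.06 to 128 kb from the outermost start, in introns 1, 5, 8 and 11 and over the coding sequence of exon 5. They amounted to 4.27 peaks per 100 kb of gene, against 2.11 per 100 kb over the bodies of all protein-coding genes in that list. For the ZHX1 peak the values were 0.610 and 0.985 per 100 kb. Named counts of 7 or more were reached by 6.29% of genes in the Zhx1-KO hnRNPA1 list. The ZHX1 peak in intron 4 (chr7:84346013-84346320) lay 2.16 kb from the exon 5 peak of Zhx1-KO hnRNPA1 (chr7:84343593-84343851), the shortest distance between lists at any member, and the antisense gene Gm30873 covers both.

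**Figure D3:**
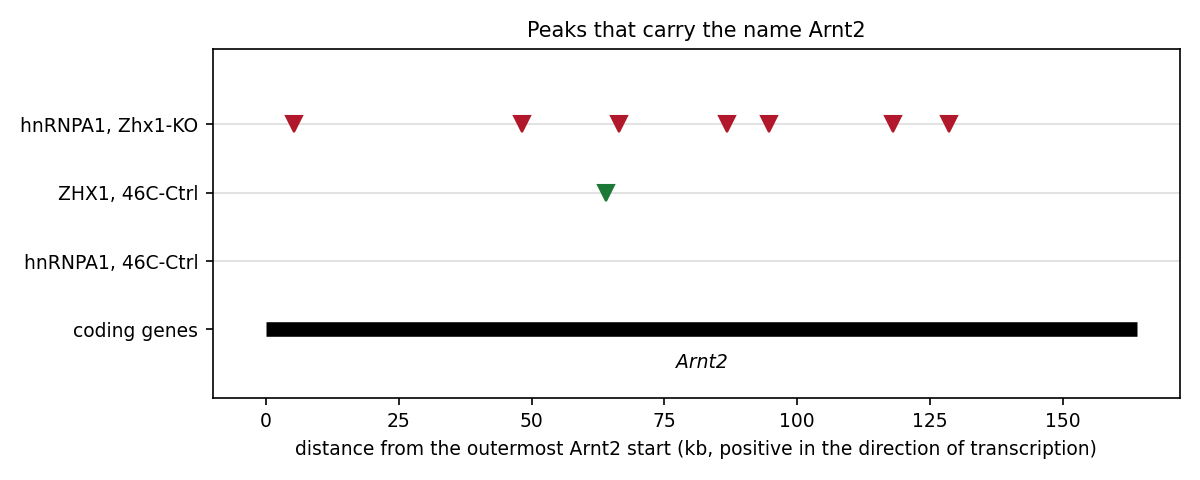
Centres of the peaks named for Arnt2 (triangles) by distance from its outermost start (x axis, kb) for the 3 lists, with the gene as a bar. All 8 peaks lie within the gene, 7 from Zhx1-KO hnRNPA1 and 1 from 46C-Ctrl ZHX1, and the 46C-Ctrl hnRNPA1 row is empty.

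The 3 prolyl hydroxylase genes differed in their peak counts, which for Egln1 and Egln2 were small and were not tested. Egln1 encodes PHD2, the main oxygen sensor of most cells (chr8:124908587-124949324, minus strand). Peaks with its name came from the Zhx1-KO hnRNPA1 list, 1 in intron 1 at 3.21 kb from the start (chr8:124945876-124946108) and 1 at 22.8 kb upstream. A further Zhx1-KO hnRNPA1 peak, named Sprtn, lay in Egln1 intron 2 (chr8:124915266-124915489), and the 46C-Ctrl lists had no peak in the gene. In the Zhx1-KO hnRNPA1 list, 35.2% of RefSeq protein-coding genes had 2 named peaks or more. Egln2, the gene of PHD1 (chr7:27158658-27166802, minus strand), had no peak in Zhx1-KO hnRNPA1 or 46C-Ctrl ZHX1. It had 1 peak in 46C-Ctrl hnRNPA1, where 31.3% of genes had at least 1 named peak. That peak (chr7:27166139-27166361) lay over untranslated sequence and an annotated start, 0.440 kb from the outermost start, and was the only one of the 44 over a start of its own gene. It had a GC content of 64.1%, the highest of the 6 member peaks of its list, and the Zhx1-KO hnRNPA1 peak nearest to an Egln2 window of RefSeq was 29.8 kb away.

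Egln3 encodes PHD3, a hydroxylase that HIF itself induces (chr12:54178981-54203860, minus strand). It had 10 named peaks in Zhx1-KO hnRNPA1, 2 in 46C-Ctrl ZHX1 and 1 in 46C-Ctrl hnRNPA1, and none lay in the gene. The stretch nearest to a curated Egln3 start is 493 kb long, the longest of the 9. It held 20.3 peaks per Mb in Zhx1-KO hnRNPA1 (19.5 genome-wide), 4.06 in 46C-Ctrl ZHX1 (8.78) and 2.03 in 46C-Ctrl hnRNPA1 (5.54). The count of 10 was thus near the rate of its list, and 3.10% of genes had as many or more. Of the 13 peaks 12 lay in Npas3, a long neighbour of 823 kb that ends 107 kb from Egln3 and encodes a neuronal transcription factor of the same bHLH-PAS family as the HIF subunits. The split was 9 of 10 for Zhx1-KO hnRNPA1, 2 of 2 for 46C-Ctrl ZHX1 and 1 of 1 for 46C-Ctrl hnRNPA1. Of the Zhx1-KO hnRNPA1 peaks, 1 covered coding sequence of the last Npas3 exon (chr12:54068594-54068817, GC content 67.4%) and the other 8 lay in introns 4 and 5. The peak nearest to Egln3 was also from Zhx1-KO hnRNPA1, intergenic and 12.3 kb past the 3′ end of the gene (chr12:54166380-54166684). Over the whole Npas3 body there were 17, 10 and 1 peaks in the Zhx1-KO hnRNPA1, 46C-Ctrl ZHX1 and 46C-Ctrl hnRNPA1 lists, whatever their name.

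**Figure D4:**
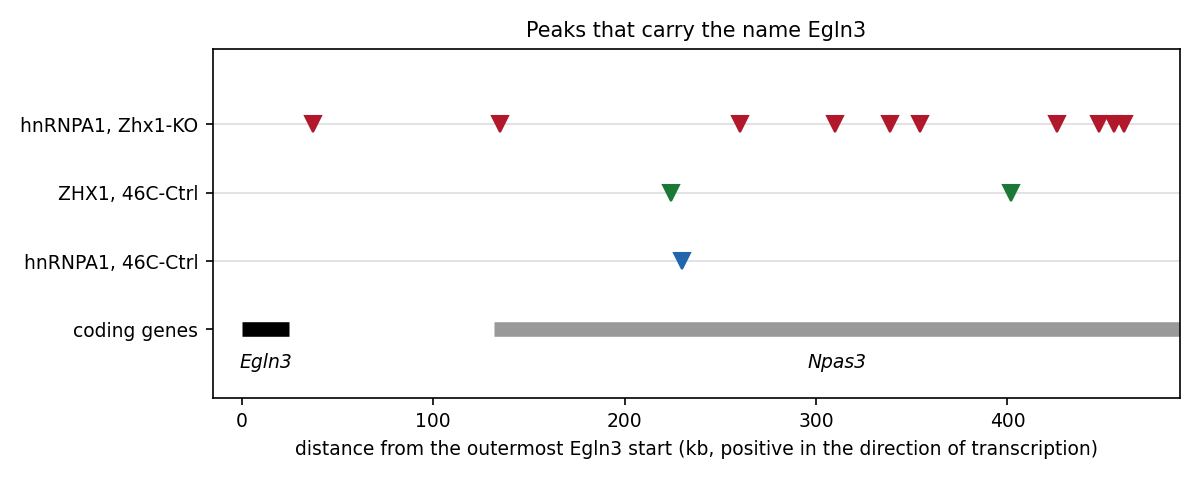
Centres of the peaks named for Egln3 (triangles) by distance from its outermost start (x axis, kb) for the 3 lists, with coding genes as bars (Npas3 cut at the right edge). No triangle stands over Egln3, and 12 of 13 stand over Npas3.

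Vhl encodes the subunit that recognises hydroxylated HIF (chr6:113623959-113631633, plus strand). It had no named peak and no peak over its body in any list. Counted from its RefSeq promoter window, the nearest peak was 24.7 kb away in Zhx1-KO hnRNPA1, 94.9 kb in 46C-Ctrl ZHX1 and 167 kb in 46C-Ctrl hnRNPA1. At 7.67 kb it is the shortest of the 9 genes.

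Across the 9 genes, peaks often lay in another gene than the named gene. Of the 44 peaks, 16 lay in the named gene (36.4%, 95% Wilson interval 23.8 to 51.1), 19 lay in another protein-coding gene (43.2%, 29.7 to 57.8) and 9 lay outside coding genes. Over the 70273 named peaks of the 3 lists that could be matched to a coding gene, 36.9% lay in the named gene and 11.3% in another. The 19 lay in 3 hosts, Npas3 with 12, Prkce with 6 and Prkch with 1. Peaks in 1 host share their surroundings and are not independent, so no test was made of this difference. The names followed the nearest curated RefSeq start for 41 of the 44 peaks and for 91.1% of all peaks, and the other 3 were Arnt2 peaks of the Zhx1-KO hnRNPA1 list.

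A promoter peak, within 2 kb of any annotated transcript start, was found for Epas1 and Arnt2 in Zhx1-KO hnRNPA1, for Epas1 and Arnt in 46C-Ctrl ZHX1 and for Egln2 in 46C-Ctrl hnRNPA1. That is 2, 2 and 1 of 9 members, where 21.0%, 12.1% and 6.77% of protein-coding genes had such a peak in the Zhx1-KO hnRNPA1, 46C-Ctrl ZHX1 and 46C-Ctrl hnRNPA1 lists. The Arnt2, Arnt and ZHX1 Epas1 calls rested on internal starts. With the outermost start alone, 1 member was left in Zhx1-KO hnRNPA1, 0 in 46C-Ctrl ZHX1 and 1 in 46C-Ctrl hnRNPA1.

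No member peak overlapped a peak of another list, for any of the 6 directions of comparison, by 1 bp or within 1 kb. List-wide overlap was itself rare. Of Zhx1-KO hnRNPA1 peaks, 1.26% overlapped 46C-Ctrl hnRNPA1 and 1.99% overlapped 46C-Ctrl ZHX1. Of ZHX1 peaks, 4.42% overlapped Zhx1-KO hnRNPA1 and 2.60% overlapped 46C-Ctrl hnRNPA1, and of 46C-Ctrl hnRNPA1 peaks, 4.41% overlapped Zhx1-KO hnRNPA1 and 4.12% overlapped 46C-Ctrl ZHX1. A count of 0 allows a share of up to 10.7% of the 28 Zhx1-KO hnRNPA1 peaks, 30.0% of the 10 ZHX1 peaks and 3 of the 6 46C-Ctrl hnRNPA1 peaks, so the absence of shared positions at these genes is not distinguishable from the list-wide rate.

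From the Zhx1-KO hnRNPA1 member peaks, the median distance to the nearest peak was 116 kb for 46C-Ctrl hnRNPA1 (all peaks of the list 50.9 kb) and 44.5 kb for 46C-Ctrl ZHX1 (31.8 kb). From the ZHX1 member peaks it was 25.9 kb to Zhx1-KO hnRNPA1 (12.9 kb) and 60.1 kb to 46C-Ctrl hnRNPA1 (47.5 kb). From the 46C-Ctrl hnRNPA1 member peaks it was 21.2 kb to Zhx1-KO hnRNPA1 (12.5 kb) and 55.9 kb to 46C-Ctrl ZHX1 (28.7 kb). In each direction the member median was the longer, and since members cluster at a few loci and the directions share peaks, this is a description.

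**Figure D5:**
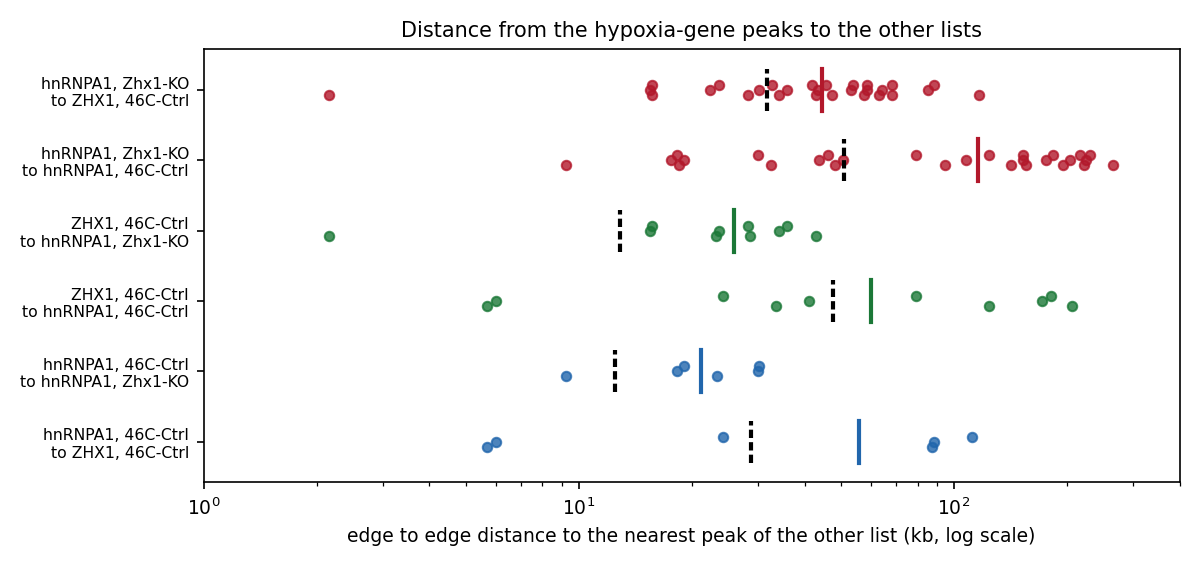
Edge to edge distance from each member peak to the nearest peak of another list (x axis, kb, log scale), with a row for each direction, points for peaks, coloured bars for the member medians and dashed black bars for the medians of all peaks of the list. The closest pair is 2.16 kb apart and no peaks meet.

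Motif shares rest on 6 to 28 peaks per list and carry wide counting error. ACGTG or GCGTG on either strand was present in 8 of 28 Zhx1-KO hnRNPA1 member peaks (26.0% of all peaks of the list), 4 of 10 ZHX1 peaks (24.0%) and 2 of 6 46C-Ctrl hnRNPA1 peaks (23.2%). The 46C-Ctrl hnRNPA1 peak in Epas1 intron 2 shown above held 1, and the ZHX1 peak at exon 8 held none. Of the Zhx1-KO hnRNPA1 peaks in Epas1 intron 1, the one at 1.32 kb held 2 and the one at 26.8 kb held 0. The 250 bases upstream of Egln2 held 4 matches and the whole window of 300 bases held 6, and 43.8% of all RefSeq windows of 300 bases held at least 1. A CACGTG in the Egln2 window matches on both strands and was counted once for each. The 46C-Ctrl hnRNPA1 peak at Egln2 lies outside this window and held no match. TAGGG was present in 5 of 28, 3 of 10 and 2 of 6 member peaks of Zhx1-KO hnRNPA1, 46C-Ctrl ZHX1 and 46C-Ctrl hnRNPA1, where 35.3%, 34.4% and 35.0% of all peaks of those lists held it. CCAAT was present in 11 of 28, 6 of 10 and 2 of 6 (38.2%, 36.4% and 36.3%), and CANNTG, the E-box, in 21 of 28, 8 of 10 and 5 of 6 (80.8%, 79.1% and 78.8%). ACGTG lies within the E-box CACGTG, so these motifs can overlap, and a match is only a spelling in the reference.

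Repeat sequence was less frequent in the member peaks than in their lists, a description with no test. Soft-masked sequence made up at least 50% of 5 of 28 Zhx1-KO hnRNPA1 member peaks, 0 of 10 ZHX1 peaks and 0 of 6 46C-Ctrl hnRNPA1 peaks, beside 38.0%, 31.5% and 29.2% of all peaks. The 32-base copy number was below 2 for 26, 10 and 6 peaks of these lists. The exceptions were the Arnt peak and the Zhx1-KO hnRNPA1 peak at chr12:53748249-53748581, named Egln3 and in Npas3, with a median of 6.5 copies. Median GC content was 50.3% for Zhx1-KO hnRNPA1, 46.5% for 46C-Ctrl ZHX1 and 52.0% for 46C-Ctrl hnRNPA1 member peaks, and 48.3%, 46.3% and 46.7% for all peaks of these lists.

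The wider pathway was counted by promoter peaks over 3 further gene lists. Of 13 HIF regulators and cofactors, 6 had one in Zhx1-KO hnRNPA1, 5 in 46C-Ctrl ZHX1 and 1 in 46C-Ctrl hnRNPA1. Over all protein-coding genes the shares were 21.0%, 12.1% and 6.77% in the same order of lists. Peaks of Zhx1-KO hnRNPA1 and 46C-Ctrl ZHX1 overlapped at Eloc, an adaptor of the VHL ligase, in an intron (chr1:16645893-16646116 and chr1:16645893-16646202). They also overlapped at Cited2, which competes with HIF for its coactivators and is needed for heart development, over coding sequence (chr10:17724402-17724679 and chr10:17724168-17724535). Peaks named for these 13 genes numbered 20 in Zhx1-KO hnRNPA1 and 16 in 46C-Ctrl ZHX1. List-wide, 1.99% of Zhx1-KO hnRNPA1 peaks overlapped 46C-Ctrl ZHX1, and 4.42% of ZHX1 peaks overlapped Zhx1-KO hnRNPA1. The difference was not tested. Siah1a, the gene of a ubiquitin ligase that acts on EGLN proteins, had a Zhx1-KO hnRNPA1 peak over its start, and the coactivator gene Ep300 had a ZHX1 peak 0.0140 kb from a start. The 46C-Ctrl hnRNPA1 call was at internal starts of Ncoa1, another coactivator gene, with peaks 203 and 215 kb from the outermost start. In the other lists the calls at P4htm, Eloc, Crebbp and Ncoa1 also rested on internal starts. Their peaks lay 10.8 to 166 kb from the outermost start of the gene. The promoter peaks at P4htm, Crebbp and Ncoa1 carried the names of other genes, Wdr6, Trap1 and Ptrhd1.

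Among 51 hypoxia targets the promoter calls were 12 in Zhx1-KO hnRNPA1, 14 in 46C-Ctrl ZHX1 and 2 in 46C-Ctrl hnRNPA1. Vegfa, the vascular growth factor gene, had no promoter peak in Zhx1-KO hnRNPA1, a ZHX1 peak 0.325 kb outside its start (chr17:46032695-46033031) and a 46C-Ctrl hnRNPA1 peak in an intron (chr17:46030419-46030828). The glycolytic gene Hk1 had the other 46C-Ctrl hnRNPA1 peak, 0.535 kb from an internal start. Epo, the erythropoietin gene, had a ZHX1 peak over its start that carried the name of its neighbour Gnb2. The glucose transporter gene Slc2a3 had a Zhx1-KO hnRNPA1 peak 1.20 kb from its outermost start and a ZHX1 peak 0.963 kb from an internal start. The vessel gene Angpt2 and the glycolytic gene Pfkl had Zhx1-KO hnRNPA1 peaks 1.48 and 0.405 kb from internal starts. Further glycolytic genes, chosen after their values were seen, were Pgk1 with a Zhx1-KO hnRNPA1 peak over its outermost start and Pfkfb3 with a ZHX1 peak 0.412 kb from its outermost start. Eno1 and Hk2 were also chosen so. Eno1 had a Zhx1-KO hnRNPA1 peak 1.89 kb from an internal start and a ZHX1 peak over an internal start. The Zhx1-KO hnRNPA1 peak lay outside the Eno1 gene body, 12.7 kb from the outermost start. Hk2 had a ZHX1 peak 1.86 kb from an internal start. The glycolytic genes Gpi1, Aldoa, Aldoc, Gapdh, Pgam1, Pkm and Ldha were also among the targets and had no promoter peak in any list. Flt1, a VEGF receptor gene, was the only target at which named peaks of different lists overlapped, those of Zhx1-KO hnRNPA1 (chr5:147611363-147611608) and 46C-Ctrl ZHX1 (chr5:147611363-147611598). Peaks named for the 51 targets numbered 96 in Zhx1-KO hnRNPA1 and 74 in 46C-Ctrl ZHX1. This 1 pair was below the list-wide overlap of 1.99% and 4.42% of the peaks of these lists. The 11 other bHLH-PAS genes included 3 with a promoter peak in Zhx1-KO hnRNPA1 (Ahr, Npas2 and Npas3), 0 in 46C-Ctrl ZHX1 and 1 in 46C-Ctrl hnRNPA1 (Arntl2). These promoter counts stand beside 21.0%, 12.1% and 6.77% of all protein-coding genes in the same order of lists.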

How the data were processed

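ChIP-seq of 46C-derived CP cells gave 5 libraries, of which the 3 ChIP samples had a peak list and the 2 inputs were not analysed here. In the authors' processing, cutadapt 1.18 removed adapters and reads shorter than 50 bases, Bowtie2 2.3.5.1 aligned the rest to GRCm38, and duplicates and ambiguous alignments were discarded. BWA 0.7.12-r1039 and deepTools 3.3.0 are listed in the submitters' processing notes as well. For the peak caller, its threshold and any use of the inputs, the method is not given in the sources used here. The deposited lists hold start and end positions and a gene name, 1 list per library, with no count or score. Discarding ambiguous alignments limits calls in repeats.

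The members and gene lists were chosen with earlier results of these data known. Groups came from the sample titles. Positions are 1-based on GRCm38. Genes came from GENCODE M21, curated starts and sequence from RefSeq GRCm38.p6, and 5 mitochondrial peaks were left out of sequence and naming counts. Overlap needed 1 bp, a promoter reached 2 kb on each side of any transcript start, and copy number was the median genome count of the 32-base words of a peak. A count of 0 was given the limit of 3 counts. Of the further lists, up to 4 genes with a promoter peak or an overlap were named per list and library in list order. Other genes of these lists were named after their values were seen. For likeness to Epas1 the rule was equal counts in all 3 lists. Alternatives were gene bodies for names, wider peaks, lists of equal length, single-copy peaks, other promoter limits, other overlap limits and centre distances. Python 3.11.15, numpy 2.4.6, scipy 1.17.1, numba 0.67.0, pysam 0.24.0 and matplotlib 3.10.9 were used, and the overlap and distance steps were tested on simulated data.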

Additional observations from a re-analysis of the deposited data

How the results depend on the processing

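Counting by gene body in place of the deposited name left 13 peaks for Zhx1-KO hnRNPA1, 3 for 46C-Ctrl ZHX1 and 2 for 46C-Ctrl hnRNPA1, of which 2, 1 and 1 were in Epas1, and left 3 members with a ZHX1 peak, because named peaks often lie in a neighbouring gene. Peaks at least as wide as the list median numbered 14 in Zhx1-KO hnRNPA1 and 3 in 46C-Ctrl hnRNPA1, where 1 member kept a named peak. With each list limited to its 14662 widest peaks, Zhx1-KO hnRNPA1 had 10 member peaks and 3 for Epas1, by construction fewer peaks. Members with a Zhx1-KO hnRNPA1 promoter peak were 1 within 1 kb, 5 within 5 kb and 1 from the outermost start, and 0 for 46C-Ctrl ZHX1 from the outermost start. Centre to centre, the median distances were 44.8 kb from Zhx1-KO hnRNPA1 to ZHX1 and 60.4 kb from ZHX1 to 46C-Ctrl hnRNPA1. The other 36 alternative values kept the count within 1.5 times or the distance unchanged. No paired analysis was possible because each group had 1 library, and no replicate could be left out. The lists give neither depth nor peak strength, so an absent call does not show that a protein was absent.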
